A study of Mus musculus with 12 samples.

Results

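The Fbxw genes described here form a tandem cluster of F-box and WD-40 paralogues on mouse chromosome 9. Ovaries of pups with and without Lhx8, a LIM homeobox gene of oocytes, were compared on the day of birth (P0) and 7 days later (P7). The 10 members (Fbxw13, Fbxw14, Fbxw15, Fbxw16, Fbxw18, Fbxw19, Fbxw20, Fbxw21, Fbxw22 and Fbxw28) were picked by symbol, because Fbxw18 fell strongly in the knockout. The knockout against wild-type values of the members are therefore given as a description, with no test. All probes of these symbols were taken, which gave 9 probes for 9 genes, of 19057 genes with a named probe on the BeadChip. Fbxw14 had no probe and was dropped.

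F-box proteins are the exchangeable subunits of SCF ubiquitin ligases: the F-box binds Skp1, Skp1 joins it to the cullin Cul1 and the RING protein Rbx1, and the WD-40 repeats of the Fbxw class hold the protein to be ubiquitinated. Ubiquitin marks proteins for the proteasome, a route that oocytes use to clear proteins as they grow and mature. Fbxw15 is known as an F-box gene whose expression in the mouse ovary is selective for oocytes.

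The groups were Lhx8 knockout at P7 (KO P7), wild type at P7 (WT P7), knockout at P0 (KO P0) and wild type at P0 (WT P0). Each held 3 replicate samples with 1 Illumina BeadChip array each, on a mixed 129, C57BL/6 and SF1 background that all groups shared. The sample titles do not say whether a replicate was 1 animal or a pool. The knockout allele is not described further in the sources used here. The labels name the tissue as oocytes, whereas the protocols describe whole ovaries: all 8 tested granulosa cell markers and all 5 stromal markers were above background on every WT P7 array.

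Values are normalised scores in z units, which set a probe against all probes of its array, so that brighter probes score higher. Differences between groups are differences of such scores, not folds. A probe was above background on an array when its score passed the 95th percentile of 1528 probes for olfactory and related receptors, which are not expected in ovary. This level was between −0.43 and −0.38 on the P7 arrays and between −0.21 and 0.08 on the P0 arrays. The test took the 23136 of 45281 probes that passed this level on 3 or more arrays. Of all probes, 46.0% to 50.4% were above background at P7 and 28.4% to 36.9% at P0. The number of arrays limits the precision. Arrays of the same group correlated with r from 0.977 to 0.994, and arrays of different groups with r from 0.905 to 0.973. The deposited scores of the ages differed in form: the array maxima were 3.45 to 5.25 at P7 and 7.21 to 10.2 at P0, so that age and processing run cannot be told apart in any comparison of P7 with P0. The Lhx8 probe averaged −0.24 in KO P7 and 0.97 in WT P7 ovaries, which differ by −1.21 ± 0.15 (SE, limma adjusted p = 2.51e-05). It averaged 0.25 in KO P0 and 1.30 in WT P0 ovaries (difference −1.05 ± 0.15, limma adjusted p = 0.000267). It was above background on all 12 arrays, and whether it lies in the deleted part of the gene was not tested.

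The cluster is a run of 15 Fbxw genes in the RefSeq order, Fbxw21, Fbxw13, Fbxw20, Fbxw14, Fbxw28, Fbxw22, Fbxw16, Fbxw19, Fbxw23, Fbxw15, Fbxw24, Fbxw25, Fbxw18, Fbxw26 and Fbxw27, of which 10 are members. RefSeq promoter windows of build GRCm38.p6 matched 8 of the 10 members, all on the minus strand of chromosome 9. The 250 bases upstream of the start site are shown for 4 members, because genes that differed in where they were detected have windows that are close copies. Fbxw18 (chr9:109702701-109702950) and Fbxw15 (chr9:109568263-109568512) were the members above background in newborn wild-type ovaries. Fbxw21 (chr9:109162023-109162272) and Fbxw28 (chr9:109339660-109339909) were the members above background on fewer than 3 arrays. Capitals mark CAGCTG, a form of the E-box CANNTG that basic helix-loop-helix factors bind, and a stretch of 12 bases (AAATCTTTGGCC) that all 8 windows share.
Fbxw18: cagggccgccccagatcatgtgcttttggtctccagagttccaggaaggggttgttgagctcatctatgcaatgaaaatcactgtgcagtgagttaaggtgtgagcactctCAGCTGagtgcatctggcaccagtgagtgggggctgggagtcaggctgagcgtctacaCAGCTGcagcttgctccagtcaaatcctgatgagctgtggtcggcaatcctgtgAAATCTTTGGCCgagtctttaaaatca
Fbxw15: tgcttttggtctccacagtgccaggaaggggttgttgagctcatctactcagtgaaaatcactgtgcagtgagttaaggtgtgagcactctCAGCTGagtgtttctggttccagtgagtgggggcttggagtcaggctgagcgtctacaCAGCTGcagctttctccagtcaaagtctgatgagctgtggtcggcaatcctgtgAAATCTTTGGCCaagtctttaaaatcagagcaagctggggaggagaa
Fbxw21: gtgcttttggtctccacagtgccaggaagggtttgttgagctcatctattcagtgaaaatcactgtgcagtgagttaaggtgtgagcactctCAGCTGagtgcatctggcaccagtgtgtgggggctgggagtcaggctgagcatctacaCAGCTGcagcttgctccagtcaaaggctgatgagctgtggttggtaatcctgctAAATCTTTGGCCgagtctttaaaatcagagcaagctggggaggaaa
Fbxw28: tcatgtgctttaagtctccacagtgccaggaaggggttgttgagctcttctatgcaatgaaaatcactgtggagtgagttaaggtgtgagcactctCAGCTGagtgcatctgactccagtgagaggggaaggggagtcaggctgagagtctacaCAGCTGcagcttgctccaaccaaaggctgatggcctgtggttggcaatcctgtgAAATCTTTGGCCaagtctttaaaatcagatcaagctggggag
In a local alignment with the Fbxw18 window, the Fbxw21 window was 94.4% identical over 231 columns, the Fbxw15 window 93.9% over 230 and the Fbxw28 window 91.1% over 235. The windows of the other 4 members were 85.8% (Fbxw16) to 91.5% (Fbxw14) identical to it. CAGCTG stood in 8 of 8 member windows, 80 to 183 bases before the start site, against 13.0% of 32851 RefSeq windows of the same length. The wider CANNTG, which includes it, stood in 8 of 8 and in 66.2% of all windows. TAATTG and TAATTA, core letters of homeodomain sites, were searched on both strands and stood in 0 of 8 member windows, against 7.17% and 4.84% of all windows. At shares this low 0 of 8 is not unusual, and nothing is read from it. The member windows are close copies, so none of these counts rests on 8 independent windows. The 12-base stretch lay 26 to 71 bases before the start site and stood in 12 of the 32851 windows (0.0365%), which belong to 11 genes: 10 Fbxw genes of the cluster and Olfr829. Within the cluster the Fbxw23 and Fbxw25 windows lacked it. The stretch was picked because the member windows share it. These matches describe letters and show no binding.

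Fbxw18 was bright in wild-type ovaries at both ages and below background in knockout ovaries. In KO P7 ovaries it scored −0.47, −0.53 and −0.55, against 2.98, 2.72 and 3.59 in WT P7 ovaries. The KO P0 scores were −0.37, −0.27 and −0.29, against 0.84, 1.43 and 1.14 in WT P0 ovaries. All 6 knockout arrays were below background and all 6 wild-type arrays above it, so the genotypes did not overlap at either age. In a whole ovary, fewer oocytes and less RNA per oocyte cannot be told apart. The mean was −0.52 ± 0.04 in KO P7 and 3.10 ± 0.45 in WT P7 ovaries (SD, n = 3 each), a difference of −3.62 ± 0.18 (SE). With the knockout arrays set to their background level, which bounds the difference, it was −3.50. At P0 the mean was −0.31 ± 0.05 in KO and 1.14 ± 0.29 in WT ovaries (SD, n = 3 each), a difference of −1.45 ± 0.18 (SE) with a bound of −1.13.

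Fbxw15 was the other member seen in newborn wild-type ovaries. It scored −0.68, −0.72 and −0.79 in KO P7 ovaries, against 2.48, 2.35 and 3.02 in WT P7 ovaries. In KO P0 ovaries it scored −0.75, −0.64 and −0.75, against −0.47, 0.44 and 0.50 in WT P0 ovaries. WT P0 replicate 1 was below background, and the other WT P0 arrays were above it. The groups did not overlap at either age. The knockout minus wild-type difference was −3.34 ± 0.21 (SE) at P7, with a bound of −3.01. At P0 it was −0.87 ± 0.21 (SE), with a bound of −0.15, and the WT P0 mean was 0.16 ± 0.55 (SD, n = 3).

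Another 5 members, Fbxw13, Fbxw16, Fbxw20, Fbxw22 and Fbxw19, were above background on the 3 WT P7 arrays and on no other array. Fbxw13 scored −0.71, −0.56 and −0.56 in KO P7 ovaries, against 0.56, 0.64 and 1.16 in WT P7 ovaries. Fbxw16 scored −0.63, −0.80 and −0.74 in KO P7 ovaries, against 0.39, 0.37 and 0.88 in WT P7 ovaries. In both genes every KO P7 array was below every WT P7 array, which was so for 23.6% of all tested probes. Fbxw20 scored −0.74, −0.66 and −0.72 in KO P7 ovaries, against 0.12, 0.02 and 0.68 in WT P7 ovaries. Fbxw22 scored −0.68, −0.71 and −0.55 in KO P7 ovaries, against 0.03, 0.05 and 0.42 in WT P7 ovaries. Fbxw19 scored −0.66, −0.85 and −0.70 in KO P7 ovaries, against −0.06, −0.04 and 0.24 in WT P7 ovaries. None of these 3 genes overlapped between genotypes at P7 either, and for each of them WT P7 replicate 3 was the brightest array.

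The knockout minus wild-type differences of these 5 genes at P7 were −1.39 ± 0.12 for Fbxw13, −1.27 ± 0.11 for Fbxw16, −0.98 ± 0.12 for Fbxw20, −0.81 ± 0.09 for Fbxw22 and −0.78 ± 0.08 for Fbxw19 (SE, n = 3 per group). Their bounds were −1.18, −0.95, −0.67, −0.57 and −0.45 in the same gene order. At P0 the 5 genes scored from −0.73 to −0.40 in KO ovaries and from −0.88 to −0.21 in WT ovaries. No array of either newborn group was above background for them, so no newborn difference is given.

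Fbxw21 and Fbxw28 did not reach the number of arrays needed for the test. Fbxw21 scored −0.68, −0.74 and −0.74 in KO P7 ovaries, against −0.45, −0.52 and −0.36 in WT P7 ovaries, where replicate 3 alone was above background. The P7 genotypes did not overlap. Its newborn scores were −0.68, −0.64 and −0.69 in KO and −0.50, −0.52 and −0.77 in WT ovaries, all below background. Fbxw28 scored −0.82, −0.83 and −0.70 in KO P7 ovaries, against −0.70, −0.80 and −0.78 in WT P7 ovaries. It scored −0.62, −0.56 and −0.69 in KO P0 ovaries, against −0.60, −0.53 and −0.62 in WT P0 ovaries, and was above background on none of the 12 arrays.

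Across the 9 members, none was above background on any of the 6 knockout arrays, 7 were above it on all 3 WT P7 arrays, and 2 were above it on any WT P0 array. WT P7 replicate 3 held the highest score of its group in 7 of the 7 tested members. WT P0 replicate 1 held the lowest score of its group for both members above background at that age, Fbxw18 and Fbxw15. Oocyte growth genes, a list of 14 tested oocyte transcripts such as Gdf9 and Zp3, had mean scores of 3.57, 3.55 and 3.86 on the WT P7 arrays and of 1.83, 2.55 and 2.09 on the WT P0 arrays, with the highest at P7 in replicate 3 and the lowest at P0 in replicate 1. Their part in the members' spread was not tested.

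**Figure D1:**
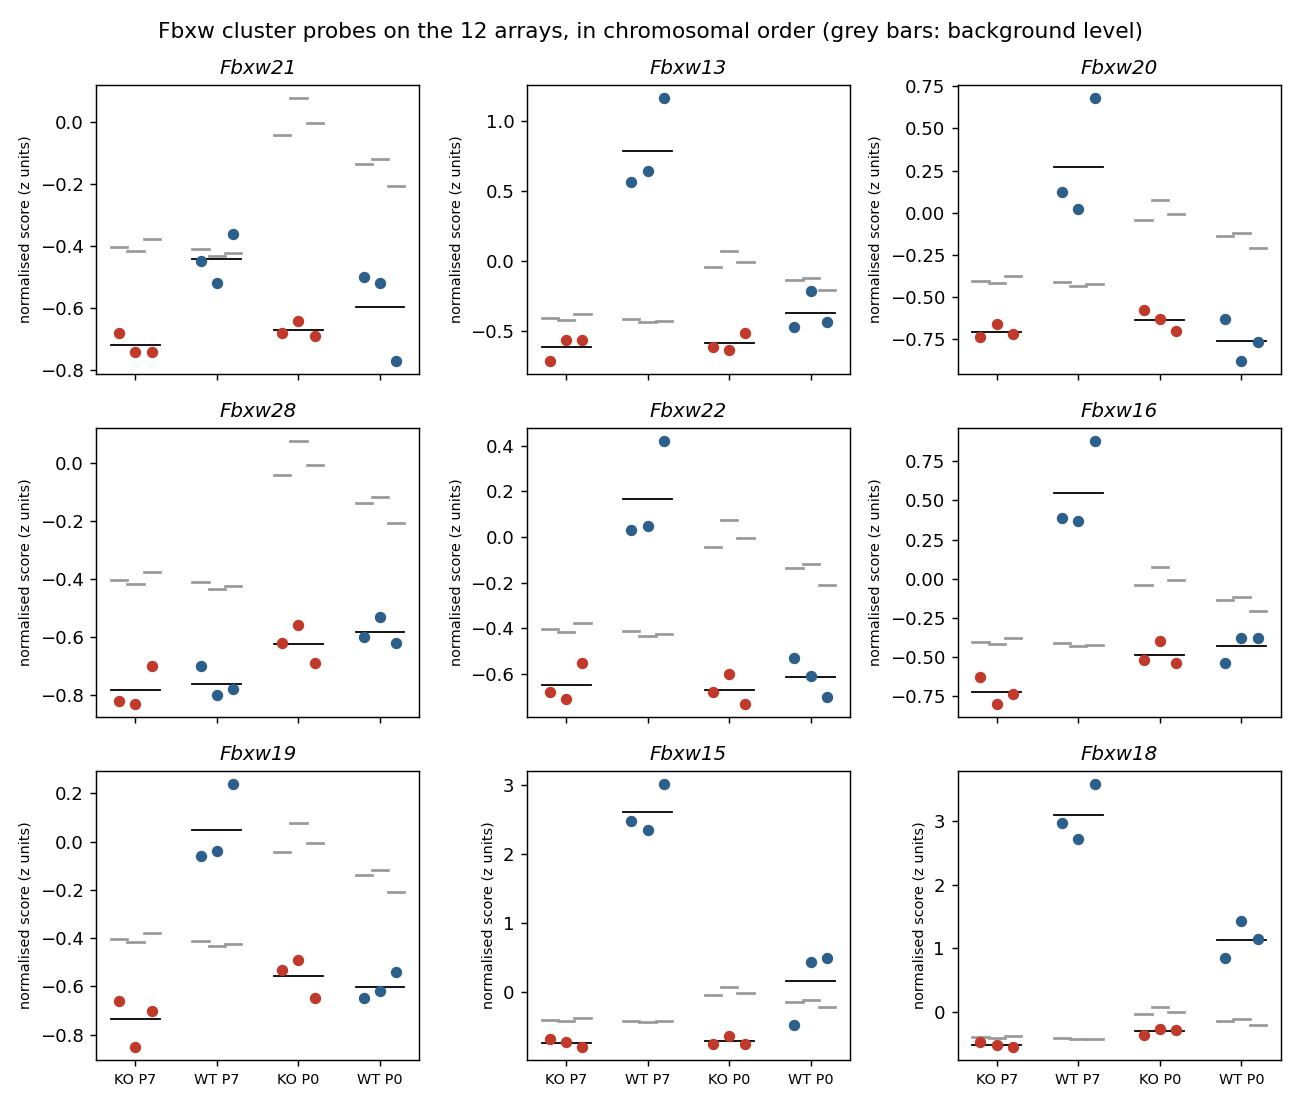
Normalised score (z units, own scale in each panel) of the 9 member probes on the 12 arrays, with KO P7, WT P7, KO P0 and WT P0 from left to right, 1 point per array, black bars for group means and grey bars for the background level of each array. All knockout points lie below their grey bars, 7 members lie above theirs on all 3 WT P7 arrays, and Fbxw18 and Fbxw15 alone lie above any at WT P0.

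At the threshold used for all probes (limma, Benjamini-Hochberg adjusted p below 0.05), knockout against wild type at P7 called 7 of the 7 tested members lower, where 14.2% of all tested probes were called lower. At P0 it called 2 of 7 lower, Fbxw18 and Fbxw15, where 10.4% of all tested probes were. The difference between the knockout effects at P7 and at P0 was called lower for 7 of 7, against 4.85% of all tested probes. Nothing is read from these counts: the members were picked on this contrast, and 5 of the 7 entered the test through the WT P7 arrays alone. With no filter on dim probes, 8 of 9 members were called lower at P7 (7.38% of 45281 probes), the exception being Fbxw28, and 2 of 9 at P0 (4.63%). Counted by arrays alone, 8 of 9 members had every KO P7 array below every WT P7 array (23.6% of tested probes), and 3 of 9 had every KO P0 array below every WT P0 array (16.1%). These shares cover tested probes only, whereas the 9 members include Fbxw21 and Fbxw28, which were not tested.

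The change from P0 to P7 was not used to choose the members, although it shares the wild-type arrays with the contrast that was. In wild-type ovaries Fbxw18 rose by 1.96 ± 0.18 between P0 and P7 (SE, limma adjusted p = 1.14e-06), and 35 of 23136 probes rose by more. Fbxw15 rose by 2.46 ± 0.21 (limma adjusted p = 6.27e-07), and 10 probes rose by more. Fbxw15 too needed the WT P7 arrays to pass the filter, and with no filter its limma adjusted p was 1.75e-07. In each of these genes every WT P7 array was above every WT P0 array. The other tested members were above background at WT P7 and below it at WT P0. They passed the filter through the WT P7 arrays alone, which fixed their direction, so their adjusted p-values come from the limma fit of all 45281 probes with no filter. The WT P7 minus WT P0 difference was 1.15 ± 0.12 for Fbxw13 (adjusted p = 2.32e-06), with a bound of 0.94 when the P0 arrays were set to background. It was 1.03 ± 0.12 for Fbxw20 (adjusted p = 6.93e-06), with a bound of 0.43. It was 0.98 ± 0.11 for Fbxw16 (adjusted p = 4.15e-06), with a bound of 0.70. Fbxw22 and Fbxw19, the smallest changes among the tested members, differed by 0.78 ± 0.09 (adjusted p = 5.13e-06, bound 0.32) and 0.65 ± 0.08 (adjusted p = 1.12e-05, bound 0.20).

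In all, 7 of the 7 tested members were called higher at P7 in wild-type ovaries, where 28.2% of all tested probes were called higher and 50.5% were called in either direction. Because 5 of them passed the filter through WT P7 alone, this count supports nothing, and the fit without a filter is given for all 9: 7 of 9 members were called higher there, where 21% of 45281 probes were. Every WT P7 array was above every WT P0 array for 7 of 9 members, Fbxw21 and Fbxw28 being the untested exceptions, and for 32.3% of tested probes. Of the remaining members, Fbxw28 was called lower (limma adjusted p = 0.00835) although below background at both ages, and Fbxw21 missed the threshold (limma adjusted p = 0.0636). The median P7 minus P0 difference over all tested probes was 0.035 in wild type.

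In knockout ovaries no member was above background at either age, so no difference is given. At the same threshold limma called 0 of 7 tested members between KO P7 and KO P0, with 2 at an unadjusted p below 0.05, where 50.8% of all tested probes were called. Without the filter 1 of 9 was called and 3 had an unadjusted p below 0.05, where 41.7% of 45281 probes were called.

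**Figure D2:**
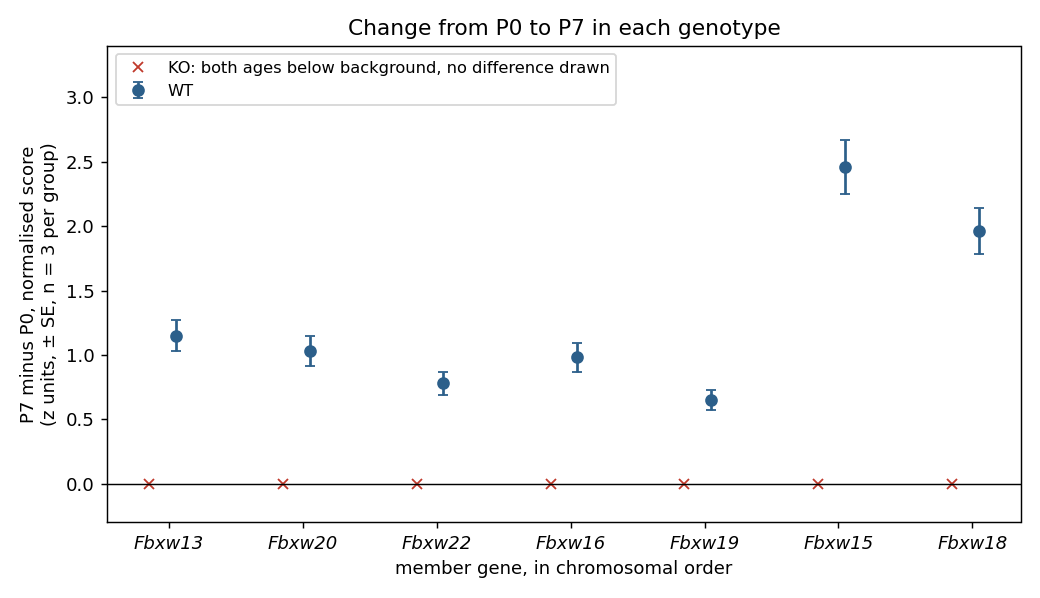
P7 minus P0 difference in normalised score (z units, points with SE bars, n = 3 arrays per group) for the 7 tested members in chromosomal order, with crosses at 0 where no KO difference is drawn because both ages were below background, and filled points for WT. The WT points run from 0.65 for Fbxw19 to 2.46 for Fbxw15.

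The cluster holds 5 Fbxw genes that are not members, and 3 of them, Fbxw24, Fbxw26 and Fbxw27, had probes (7, all tested). They were not on the member list, and the model's p-values are printed for them. They are not an unselected test: they are close paralogues, earlier results of these data were known when the lists were drawn up, and the Fbxw24 probes and 1 Fbxw26 probe would not have passed the filter without the WT P7 arrays. All 7 probes fell in KO P7 against WT P7 ovaries, by differences from −2.84 to −1.75, and all 7 were below background on every knockout array. All 7 thus passed the filter through wild-type arrays alone, which favoured a fall. Their adjusted p-values for knockout against wild type are given as a description. The brightest tested probe of Fbxw26 scored −0.63, −0.66 and −0.59 in KO P7 ovaries, against 2.08, 2.10 and 2.34 in WT P7 ovaries. Its difference was −2.80 ± 0.18 (SE, limma adjusted p = 3.77e-08), with a bound of −2.57. In newborns it scored −0.38, −0.16 and −0.43 in KO ovaries, against 0.69, 1.59 and 0.69 in WT ovaries. It fell by 1.32 ± 0.18 there (limma adjusted p = 0.000239, bound −0.98), and the groups did not overlap at either age.

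Fbxw27 fell by 2.51 ± 0.17 at P7 (limma adjusted p = 6.26e-08, bound −2.18) and fell by 1.06 ± 0.17 at P0 (limma adjusted p = 0.000831, bound −0.36). Its WT P7 scores were 1.41, 1.79 and 2.14 and its WT P0 scores −0.05, 0.69 and 0.47, all above background. Fbxw24 fell by 2.31 ± 0.19 at P7 (limma adjusted p = 3.53e-07, bound −2.13). At P0 its probes disagreed: one fell by 0.75 ± 0.19 (limma adjusted p = 0.0126) with a bound of −0.03, and the other differed by −0.41 ± 0.19 (limma adjusted p = 0.141). In total, 6 of the 7 probes were called lower at P0. All 7 rose between P0 and P7 in wild type, by 0.78 to 2.32, and none was above background in knockout at either age.

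Along the cluster, detection in newborn wild-type ovaries split at Fbxw23, a gene with no probe. Of the 7 probed genes on its Fbxw21 side, 0 were above background on any WT P0 array, while 6 were above it on at least 1 WT P7 array and 5 on all 3. Of the 5 probed genes on its Fbxw27 side (Fbxw15, Fbxw24, Fbxw18, Fbxw26 and Fbxw27), 5 were above background on at least 1 WT P0 array, 3 on all 3 WT P0 arrays, and 5 on all 3 WT P7 arrays. A gene was counted by its probe above background on the most arrays. Fbxw24, Fbxw26 and Fbxw27 had 2, 3 and 2 probes and each other probed gene had 1, so the sides had unequal chances. An Fbxw26 probe was above background on 2 WT P0 arrays. The same sides also differed in score at WT P7. There the probe means ran from 1.09 to 3.10 on the Fbxw27 side and from −0.76 to 0.78 on the Fbxw21 side. The background level was also higher on the P0 arrays than on the P7 arrays. The dividing gene was chosen after the values were seen and the split was not tested. Probes differ in brightness for equal amounts of RNA, and which of these near-identical transcripts each probe matches was not tested.

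The genes that flank the cluster were counted in the same fit. Of the 5 nearest protein-coding genes with a tested probe on each side (Shisa5, Trex1, Atrip, Ccdc51 and Plxnb1, then Cdc25a, Map4, Dhx30, Smarcc1 and Cspg5), 0 of 10 fell and 1 rose in KO P7 against WT P7 ovaries by limma's adjusted p (0 lower and 2 higher at an unadjusted p below 0.05). The gene that rose was Trex1, a DNA exonuclease, with a difference of 0.46 ± 0.10 (limma adjusted p = 0.00237). At P0 1 of 10 fell, Cspg5, a chondroitin sulphate proteoglycan, with −0.44 ± 0.13 (limma adjusted p = 0.0266). Over all tested probes, 14.2% were called lower and 13.7% higher at P7, and 10.4% lower and 7.58% higher at P0. The median difference of the 10 flanking genes was −0.03 at P7 and −0.09 at P0, beside 0.023 and −0.0051 over all tested probes. These counts take the brightest probe of each gene, and 3 of the uncounted probes were called between genotypes. A Shisa5 probe was lower at P7 (difference −0.36 ± 0.07, limma adjusted p = 0.00187, bound −0.25). A further Trex1 probe was higher at P7 (0.35 ± 0.12, limma adjusted p = 0.038), and a Smarcc1 probe was lower at P0 (−0.29 ± 0.07, limma adjusted p = 0.0101). The Shisa5 probe passed the filter through the WT P7 arrays alone and the Smarcc1 probe through wild-type arrays alone. The filter thus favoured their direction, and nothing is read from either call.

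**Figure D3:**
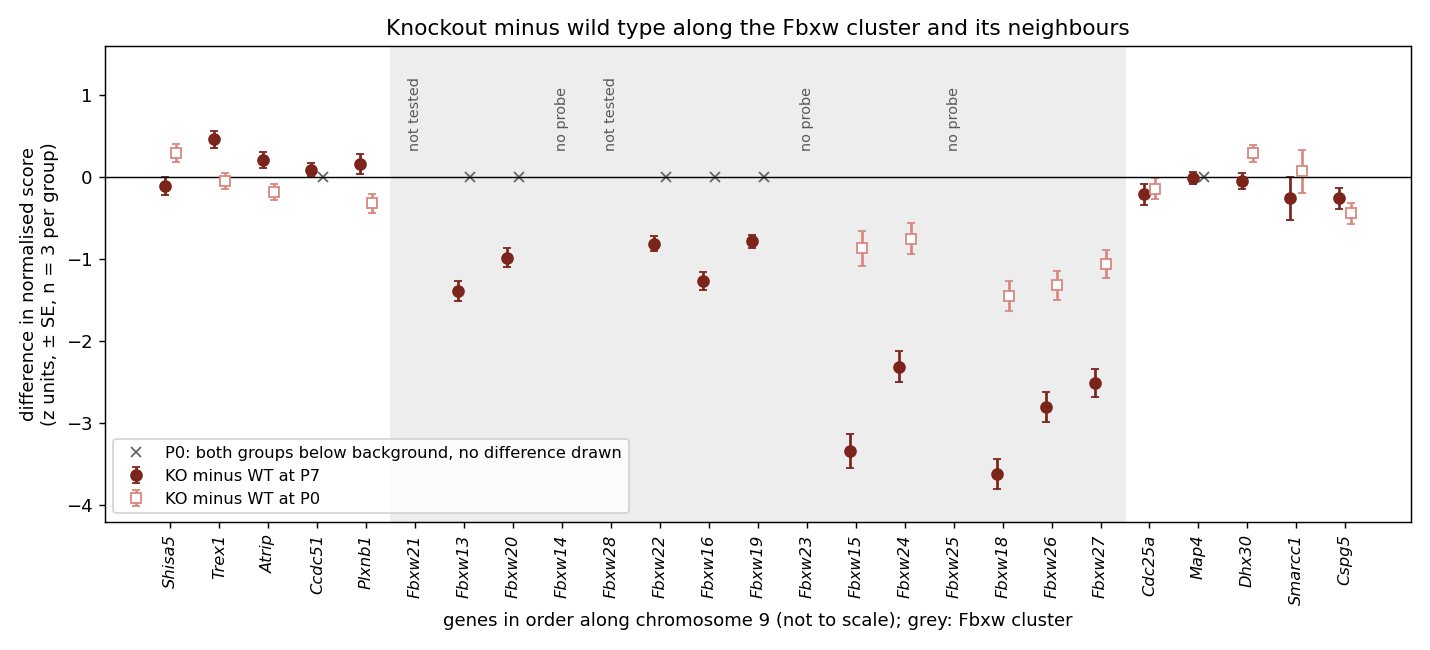
Knockout minus wild-type difference in normalised score (z units, SE bars, n = 3 arrays per group) at P7 (filled circles) and P0 (open squares) for the tested genes in order along chromosome 9, with the Fbxw cluster shaded, its genes without a probe or a test marked, and crosses at 0 where both P0 groups were below background. At P7 the tested cluster genes lie between −3.62 and −0.78, and at P0 the cluster genes with a drawn difference all lie on the Fbxw27 side of Fbxw23.

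The common subunits of SCF ligases lie outside the cluster. Skp1, the adaptor that F-boxes bind, averaged 1.23 in KO P7 and 1.88 in WT P7 ovaries, which differ by −0.65 ± 0.12 (SE, limma adjusted p = 0.00108). At P0 it averaged 1.92 in KO and 2.32 in WT ovaries (difference −0.40 ± 0.12, limma adjusted p = 0.0363). Cul1, the cullin scaffold, differed by −0.15 ± 0.13 at P7 (limma adjusted p = 0.431) and by 0.14 ± 0.13 at P0 (limma adjusted p = 0.48). Rbx1, the RING subunit that holds the ubiquitin-conjugating enzyme, differed by −0.23 ± 0.11 at P7 (limma adjusted p = 0.127) and by −0.30 ± 0.11 at P0 (limma adjusted p = 0.0639). Of the 10 tested genes on the list of SCF subunits and neddylation factors, 3 fell and 0 rose at P7, with a median of −0.20, and 4 fell and 0 rose at P0, with a median of −0.33. The model called 14.2% of all tested probes lower at P7 and 10.4% at P0. Between P0 and P7, 5 of the 10 genes fell and 1 rose in knockout, and 5 fell and 1 rose in wild type. Over all tested probes, 20.1% were called lower and 30.7% higher in knockout, and 22.3% lower and 28.2% higher in wild type.

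Genes of other F-box and WD-40 proteins, outside the cluster, gave 0 limma calls of 7 tested between knockout and wild type at P7 and 0 at P0, with 2 at an unadjusted p below 0.05 at P7 and 0 at P0. The model called 27.9% of all tested probes at P7 and 17.9% at P0. The median difference of these 7 genes was 0.11 at P7 and −0.01 at P0. Fbxw7, whose protein targets cyclin E and Myc, averaged 1.15 in KO P7 and 0.88 in WT P7 ovaries (difference 0.27 ± 0.10, limma adjusted p = 0.06). Fbxw8 differed by 0.25 ± 0.09 at P7 (limma adjusted p = 0.0503). A dimmer probe of Fbxw2 that was not counted was called lower at P7 (difference −0.18 ± 0.06, limma adjusted p = 0.0445), while the 3 other tested Fbxw2 probes were not called. Likewise 1 uncounted probe of Btrc, whose protein targets beta-catenin, was called lower in KO P0 against WT P0 ovaries (limma adjusted p = 0.011), with both groups below background, and was called higher at KO P7 than at KO P0 (limma adjusted p = 0.00171).

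With age, 4 of these 7 genes rose in both genotypes, where 30.7% of all tested probes were called higher in KO and 28.2% in WT. Fbxw2 rose by 0.32 between KO P0 and KO P7 (limma adjusted p = 0.0297) and by 0.30 in WT (limma adjusted p = 0.0388). Fbxw5 rose by 0.42 in KO (limma adjusted p = 0.00469) and by 0.29 in WT (limma adjusted p = 0.0347). Fbxw7 rose by 0.43 in KO (limma adjusted p = 0.00212) and by 0.26 in WT (limma adjusted p = 0.0405). Fbxw8 rose by 0.40 in KO (limma adjusted p = 0.00182) and by 0.26 in WT (limma adjusted p = 0.026). Fbxw17 fell by 0.25 in WT (limma adjusted p = 0.0465) and differed by 0.00 in KO (limma adjusted p = 0.985).

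The lists of cell markers show what else differed between these ovaries. All 14 tested oocyte growth genes fell in KO P7 against WT P7 ovaries, with a median difference of −3.31, where 14.2% of all tested probes were called lower. At P0 13 of 14 fell, with a median of −1.54, where 10.4% of all tested probes were called lower. The list was drawn up with earlier results of these data known. Gdf9, a growth factor that oocytes secrete, averaged 0.73 in KO P7 and 5.5 in WT P7 ovaries (difference −4.77 ± 0.22, limma adjusted p = 1.84e-09). At P0 it averaged −0.12 in KO and 2.92 in WT ovaries (difference −3.04 ± 0.22, limma adjusted p = 7.95e-07). Zp3, a protein of the zona pellucida, fell by 4.40 ± 0.24 at P7 (limma adjusted p = 6.31e-09) and fell by 2.82 ± 0.24 at P0 (limma adjusted p = 2e-06). On the KO P7 arrays 8 of the 14 oocyte growth genes were still above background, while Bmp15, H1f8, Kpna7, Npm2, Oosp1 and Zp1 were not, on any of the 3 arrays. The genes named last passed the filter through wild-type arrays alone, and Kpna7 through the WT P7 arrays alone, so the filter favoured their direction.

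Germ cell genes that are on before oocytes grow were counted apart. Of 7 tested, 6 fell at P7, with a median of −0.60, and 2 fell and 2 rose at P0, with a median of −0.06, and 6 or 7 of the 7 were above background on each KO P0 array. The shares of all tested probes were 14.2% called lower at P7, and 10.4% lower and 7.58% higher at P0. Dazl, an RNA-binding protein of germ cells, fell by 0.87 ± 0.12 at P7 (limma adjusted p = 0.000109) and rose by 0.51 ± 0.12 in KO P0 against WT P0 ovaries (limma adjusted p = 0.0121). Ddx4, a germ cell RNA helicase, fell by 0.43 ± 0.09 at P7 (limma adjusted p = 0.00321) and differed by 0.25 ± 0.09 at P0 (limma adjusted p = 0.0796). The genes that fell at P0 were Elavl2 (difference −1.93 ± 0.16, limma adjusted p = 2.16e-06) and Tdrd1 (−0.41 ± 0.11, limma adjusted p = 0.0204). Dnd1 rose there besides Dazl (0.59 ± 0.10, limma adjusted p = 0.00123). Fbxw18 and Fbxw15, the members above background at WT P0, were below it in KO P0 ovaries. On each KO P0 array 3 or 4 of the 14 oocyte growth genes were above it. A score above background does not show how many oocytes were present, and oocyte number was not tested. The other 7 members were below background in both newborn groups, so newborn ovaries could not show a loss of them.

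For markers of other cell types, the counts stand beside 14.2% of all tested probes called lower and 13.7% higher at P7, and 10.4% and 7.58% at P0. Granulosa cell markers gave 5 lower and 1 higher of 8 at P7 and 0 limma calls at P0 (0 also at an unadjusted p below 0.05). Leukocyte markers gave 3 higher of 3 at each age. Stromal markers gave 2 higher of 5 at P7 and 0 at P0, adjusted or not. Endothelial markers gave 2 higher of 5 at P7 and 3 at P0. Theca markers gave 1 higher of 4 at P7 and 0 at P0, adjusted or not. The theca call was Star, which passed the filter through the KO P7 arrays alone (bound 0.13). Its direction was thus fixed, and nothing is read from it. The 1 tested adrenal cortex marker gave 0 at P7 and was lower at P0, and the 2 erythroid markers gave 0 at both ages, adjusted or not. The part of cell makeup in the members' differences was not tested.

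The 5 genes outside the member list with profiles nearest to Fbxw18 were H1f8, E330034G19Rik, Omt2a, Bmp15 and Zp1. Nearness was the root mean square difference from the Fbxw18 probe over the 12 arrays after centring, in z units, over 12203 genes. It was 0.204 for H1f8, the linker histone of oocytes, and 0.222 for E330034G19Rik. It was 0.260 for Omt2a, named for oocyte maturation, 0.280 for Bmp15, a growth factor of oocytes, and 0.286 for Zp1, a zona pellucida protein. Within the cluster it was 0.320 for Fbxw15, 0.411 for Fbxw26, 0.452 for Fbxw27 and 0.481 for Fbxw24, which placed those last 3 at ranks 17, 18 and 21. For the 5 members detected at WT P7 alone it ran from 0.921 for Fbxw13 to 1.19 for Fbxw19. The profiles were centred but not scaled, so a dim probe with small differences lies far from Fbxw18 whatever the shape of its profile. The 12 arrays come from 4 groups and are not 12 independent conditions.

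**Figure D4:**
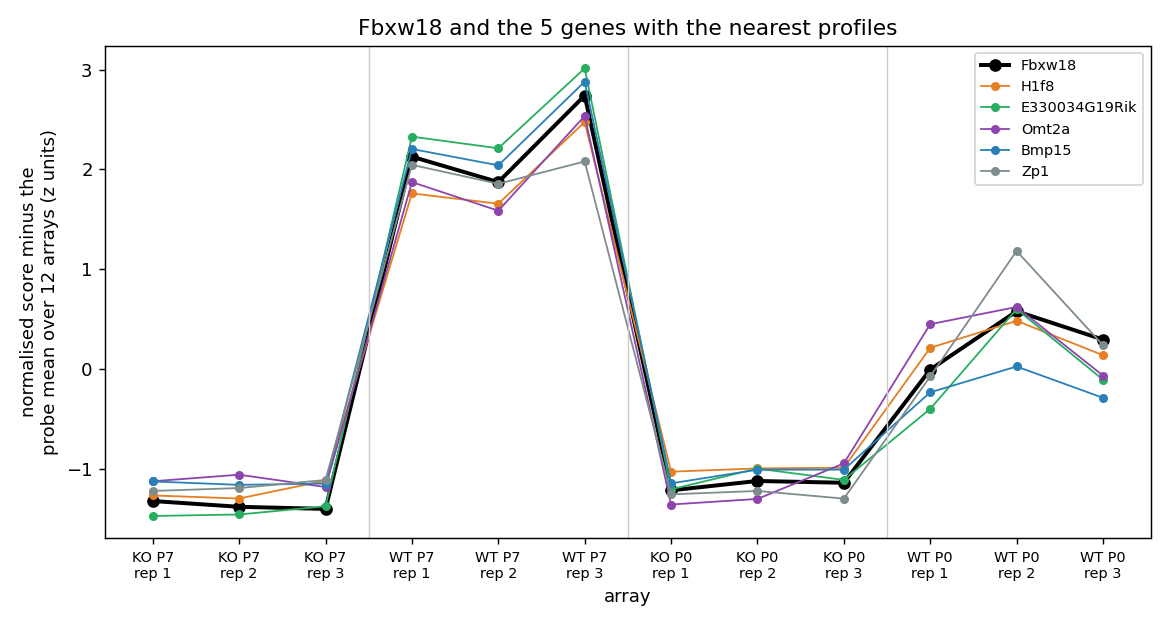
Normalised score minus the probe's mean over the 12 arrays (z units) for Fbxw18 (black) and the 5 genes with the nearest profiles, on the arrays of KO P7, WT P7, KO P0 and WT P0 from left to right. All 6 lines are lowest on the 6 knockout arrays and highest on the 3 WT P7 arrays, with WT P0 between them.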

How the data were processed

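Total RNA of mouse ovaries was hybridised to Illumina BeadChips. The submitters' processing notes name GenomeStudio 2011.1. The deposited values used here are scores with a mean of 0 and an SD of 1 on each array, as tested on the values. The sources used here do not state their background correction or any log behind them. Another 48 columns had names that matched no single sample's labels and were not used. The 12 samples were grouped by their titles.

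The scores were quantile-normalized over the 12 arrays and fitted in R 4.3.3 with limma 3.58.1 (lmFit, then eBayes with trend = TRUE). A single model held the 4 groups and left 8 residual degrees of freedom. The Benjamini-Hochberg adjustment ran over the 23136 tested probes, and the threshold was 0.05. The script was tested on simulated data. Of 45281 probes, 34885 had 1 gene symbol, 18 several and 10378 none in the platform annotation, and 99.8% of its gene IDs were in the RefSeq table, which updated symbols. A list counts each gene once, by its tested probe with the highest mean. No level is compared between probes, except where scores along the cluster are described.

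The named genes were all members, the cluster's other genes, 5 neighbours on each side, Skp1, Cul1, Rbx1, F-box genes with a called probe, Gdf9, Zp3, Ddx4, Dazl, Lhx8 and the 5 nearest profiles. Elavl2, Tdrd1, Dnd1, Star and the oocyte growth genes at background in KO P7 ovaries were named besides, after the values were seen. The members and lists were chosen with earlier results of these data known. Replicate numbers did not pair the samples.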

Additional observations from a re-analysis of the deposited data

Results flagged for a closer look

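The knockout minus wild-type difference at P7 minus that at P0 was past the threshold of the model for all 7 tested members, where it was past it in the lower direction for 4.85% of all tested probes. It is given as a value because the members were picked on this contrast. It was −2.47 for Fbxw15 and −2.17 for Fbxw18. Both genes were below background on every knockout array, so these values mostly repeat their wild-type rises of 2.46 and 1.96. They do not show a genotype effect that grew with age. The fit gave −1.22 for Fbxw16, −1.18 for Fbxw13 and −1.10 for Fbxw20, and −0.83 for Fbxw19 and −0.76 for Fbxw22. These last 5 values are no measured sizes: all groups except WT P7 were below background, and the genes passed the filter through WT P7 alone. It also passed for 6 of the 7 probes of cluster genes outside the member list. Those values were −2.43 and −1.55 for Fbxw24, −1.48 and −1.57 for Fbxw26, and −1.12 and −1.45 for Fbxw27. The same limit holds for them, since these probes were below background on every knockout array. The ages may have been processed in separate runs, which cannot be told apart from age here.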

How the results depend on the processing

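Across the alternatives run (no normalization, median centring, no filter, a stricter filter, 1 probe per gene, no trend, array weights, only the groups compared, a replicate block, and leaving out each replicate), no member difference changed sign where a group was above background. The Fbxw18 difference between knockout and wild type ranged from −3.85 to −3.31 at P7 and from −1.61 to −1.29 at P0, and its wild-type change with age from 1.72 to 2.23. With a filter of 6 arrays above background, 1 member (Fbxw18) was tested, and it was called in 1 of 1 for knockout against wild type at P7, at P0, for their difference, and for age in wild type. For age in knockout, where no member was above background, calls numbered 2 with the deposited scores, 1 with no filter and 3 with only the groups compared. Leaving out 1 replicate gave 0 to 2, the 2 without WT P7 replicate 3. Replicate numbers did not pair the samples (correlations of same-numbered deviations between KO P7 and WT P7 were −0.158, 0.143 and −0.099), and the replicate block kept 7, 2, 0, 7 and 7 members called for genotype at P7 and P0, age in KO and WT, and the difference of genotype effects. With 3 arrays a group and scores, the differences of the dim members are to be read with their bounds.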
